A study of Mus musculus with 22 samples.

Results

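Olfactory receptor genes, whose mouse symbols start with Olfr, lie in clusters along most chromosomes, and these clusters were described here in 5-methylcytosine (5mC) and 5-hydroxymethylcytosine (5hmC) maps of 3 brain tissues. The GENCODE vM21 annotation of the mm10 genome listed 1407 such genes, of which 1399 were autosomal, 1128 of these protein coding and 271 pseudogenes. For 5mC, the clusters were taken as the autosomal 100 kb bins that overlap 2 or more Olfr genes. That gave 299 of the 26327 bins in the files, and they held 1343 Olfr genes. For 5hmC, measured in wider bins, they were taken as the 1 Mb bins with 5 or more Olfr genes, which gave 54 of 2641 bins and 1325 genes. The rule used gene positions only, and no measured value. A 100 kb member held 12 Olfr genes at most and a median of 4, and a 1 Mb member held 69 at most and a median of 18. One 100 kb member, at chr7:84900001-85000000, qualified only because the symbol Olfr290 is carried by 2 gene records.

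The study compared the cortex, olfactory bulb and cerebellum of C57BL/6 mice aged 8 weeks. The tissues were taken whole, from female mice, with no treatment and no transgene, and the mice of a tissue were independent of each other. Levels of 5mC came from oxidative bisulfite sequencing (oxBS-seq), in which 5hmC is first oxidised so that 5mC alone is read as cytosine, with 3 cortex, 2 olfactory bulb and 2 cerebellum libraries. Levels of 5hmC came from TET-assisted bisulfite sequencing (TAB-seq), in which 5hmC is shielded by a sugar and 5mC is oxidised away, with 3 libraries per tissue. Each level is a fraction from 0 to 1 for a bin, and the number of reads behind a bin is unknown. The methods describe the 3 tissues as dissected from a mouse and the replicates as independent mice, but the labels do not say which libraries share a mouse. RNA-seq of the tissues was not analysed here, so the tissue labels were not checked against marker genes.

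Each mature olfactory sensory neuron in the nose expresses a single olfactory receptor allele, and the receptors couple odour binding to cyclic AMP signalling in its cilia. The axons of these neurons end in the olfactory bulb, but their nuclei stay in the nasal epithelium, so the DNA measured in the bulb is that of bulb neurons, glia and vessels. In the sensory neurons, receptor gene clusters are packed in heterochromatin and all but the chosen allele stay silent. Mouse receptors fall into class I, which resemble the receptors of fish and sit in a single cluster on chromosome 7, and class II, which sit in all the other clusters. In neurons, 5hmC is known to be rich over the bodies of transcribed genes.

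The DNA just before Olfr genes was poor in CG dinucleotides, the sites read here as 5mC or 5hmC. The 250 bases before the annotated start were read for the 1045 of 1128 protein-coding Olfr genes whose start lies before the coding sequence and whose window touches no annotated exon. They held a median of 1 CG, against a median of 7 over 16171 protein-coding genes chosen the same way. At least 1 CG stood in 56.5% of the Olfr windows and in 91.7% of all windows. The palindrome TAATTA, the core of homeodomain sites such as those bound by Lhx2, was present in 23.1% of the Olfr windows and in 5.52% of all windows. The palindrome CCCNNGGG, the core of sites bound by Ebf proteins, was present in 14.4% and 14%. These motifs read the same on both strands and cannot overlap each other, though a CG can lie inside CCCNNGGG. The windows of Olfr genes and of all genes were not matched for base composition. The share of windows with TAATTA, which holds only A and T, also depends on that composition. A letter match is a description and does not show a bound site.

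The windows of 6 genes are printed because the results below turn on their bins. Olfr160 (M72), Olfr78 and Olfr17 (P2) are receptors much used in work on receptor choice and axon targeting, Olfr78 being the class I member. Among the Olfr bins, by difference in level, Olfr837 lies in the 100 kb bin whose 5mC was furthest below cortex in the cerebellum. Olfr90 and Olfr91 lie in the Olfr bin furthest above cortex there. Each is given from the far end to the base before the start, read on the gene's strand from the mm10 (GRCm38.p6, RefSeq) sequence, with CG in capitals. A 100 kb mean cannot resolve any of these windows.
Olfr160, chr9:37716251-37716500 (minus strand): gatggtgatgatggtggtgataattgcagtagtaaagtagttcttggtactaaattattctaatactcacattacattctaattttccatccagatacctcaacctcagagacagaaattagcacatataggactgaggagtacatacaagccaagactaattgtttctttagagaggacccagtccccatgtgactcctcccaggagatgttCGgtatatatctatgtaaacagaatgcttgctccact
Olfr78, chr7:102759472-102759721 (minus strand): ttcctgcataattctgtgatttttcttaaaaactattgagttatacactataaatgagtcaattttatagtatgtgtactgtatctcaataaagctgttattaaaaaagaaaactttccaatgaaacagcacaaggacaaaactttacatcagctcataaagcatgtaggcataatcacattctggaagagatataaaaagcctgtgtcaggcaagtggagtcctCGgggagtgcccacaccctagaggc
Olfr17, chr7:107092970-107093219 (plus strand): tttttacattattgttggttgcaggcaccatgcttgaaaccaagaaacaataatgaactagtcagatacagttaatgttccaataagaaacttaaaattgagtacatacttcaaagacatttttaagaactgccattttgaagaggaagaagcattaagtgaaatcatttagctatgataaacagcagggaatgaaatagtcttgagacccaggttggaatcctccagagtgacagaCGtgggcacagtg
Olfr837, chr9:19136067-19136316 (plus strand): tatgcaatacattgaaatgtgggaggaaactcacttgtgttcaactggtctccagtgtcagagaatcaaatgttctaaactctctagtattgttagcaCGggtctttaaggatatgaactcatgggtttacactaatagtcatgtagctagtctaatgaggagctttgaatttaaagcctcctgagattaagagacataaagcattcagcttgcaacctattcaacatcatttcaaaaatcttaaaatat
Olfr90, chr17:37088500-37088749 (minus strand): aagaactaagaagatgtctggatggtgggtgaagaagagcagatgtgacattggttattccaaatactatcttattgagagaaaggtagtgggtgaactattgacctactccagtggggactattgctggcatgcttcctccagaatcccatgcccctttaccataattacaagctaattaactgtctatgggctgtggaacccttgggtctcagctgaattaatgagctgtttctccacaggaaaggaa
Olfr91, chr17:37098279-37098528 (minus strand): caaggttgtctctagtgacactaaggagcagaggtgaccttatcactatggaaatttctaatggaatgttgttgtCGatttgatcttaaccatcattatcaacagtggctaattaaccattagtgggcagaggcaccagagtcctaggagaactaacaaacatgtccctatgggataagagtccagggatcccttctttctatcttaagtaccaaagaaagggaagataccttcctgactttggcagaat

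The window of Olfr90 had no CG, and the others had 1 each. TAATTA occurred 2 times before Olfr90 and 1 time before Olfr91, and in none of the other 4 windows. CCCNNGGG occurred 1 time, before Olfr90.

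Olfr clusters carried high 5mC in all 3 tissues. The mean over the 299 bins was 0.749, 0.744 and 0.721 in the cortex libraries (0.738 ± 0.0148, SD, n = 3). It was 0.767 and 0.768 in the olfactory bulb (SD 0.00110, n = 2) and 0.764 and 0.749 in the cerebellum (0.757 ± 0.0106, n = 2). The bulb libraries stood above all cortex libraries, and the lower cerebellum library met the highest cortex library at 0.749. The bulb exceeded the cortex by 0.0294 (two-sided exact permutation p = 0.1, the smallest that 2 against 3 libraries allow, adjusted p = 0.3 over 3 pairs). The cerebellum exceeded the cortex by 0.0186 (exact permutation p = 0.2, adjusted p = 0.3) and stood 0.0108 below the bulb (exact permutation p = 0.333, the smallest that 2 against 2 allow). The lowest cortex library was below the other cortex libraries in every class of bins examined. Without it, the bulb exceeded the cortex by 0.0210 and the cerebellum exceeded the cortex by 0.0102. These are whole tissues, so a different mix of cell types and a different level within the same cells cannot be told apart.

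Single bins covered a wide range around these means. Levels of the 299 bins ran from 0.450 to 0.805 in the cortex (median 0.749), from 0.449 to 0.842 in the bulb (median 0.780) and from 0.476 to 0.823 in the cerebellum (median 0.766). The medians over all autosomal bins were 0.693, 0.726 and 0.758. The highest members were chr7:108400001-108500000, which holds Olfr497 and Olfr498, chr7:103200001-103300000 in the class I cluster, which holds Olfr593 and Olfr594, and chr10:129300001-129400000, which holds Olfr779 to Olfr784. The first of these read 0.822, 0.800 and 0.769 in cortex, 0.848 and 0.837 in bulb and 0.807 and 0.792 in cerebellum. The lowest was chr13:21100001-21200000, with Olfr263 and Olfr1368, at 0.428, 0.485 and 0.436 in cortex, 0.454 and 0.444 in bulb and 0.499 and 0.453 in cerebellum. Near the lowest too was chr19:12000001-12100000, with 7 Olfr genes from Olfr1421-ps1 to Olfr1427, at 0.457, 0.460 and 0.452 in cortex and 0.572 and 0.510 in bulb.

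The bins on both sides of the rule's limit of 2 genes followed the same gradient. The 65 autosomal bins with 1 Olfr gene, which are not members, averaged 0.683 in cortex, 0.710 in bulb and 0.713 in cerebellum. The 42 members with exactly 2 genes averaged 0.705, 0.733 and 0.731. Levels were 0.738, 0.764 and 0.754 in the 113 bins with 3 to 4 genes, 0.752, 0.784 and 0.769 in the 87 bins with 5 to 6, and 0.741, 0.774 and 0.763 in the 57 bins with 7 or more. In each tissue the bins with 5 to 6 genes had the highest mean.

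Each library was then compared with itself, so that a library's own mean level drops out. Flanks were the 393 bins within 500 kb of a member that hold no Olfr gene. They read 0.652, 0.654 and 0.627 in cortex, 0.678 and 0.672 in bulb and 0.695 and 0.680 in cerebellum. Olfr bins lay above their flanks in 7 of 7 libraries, by 0.0864 on average (exact sign-flip permutation p = 0.0156, the smallest that 7 libraries allow, Benjamini-Hochberg adjusted p = 0.0195 over 5 differences). This test takes the 7 libraries as independent, but libraries of different tissues may come from the same mice. The same limit holds for every sign-flip test below. The excess was 0.0938 ± 0.00343 in cortex, 0.0927 ± 0.00543 in bulb and 0.0691 ± 0.000211 in cerebellum. The cerebellum excess lay below every cortex library, by 0.0247 on average (exact permutation p = 0.1, adjusted p = 0.3), and below both bulb libraries by 0.0236 (exact permutation p = 0.333). Bulb and cortex libraries overlapped, at a difference of -0.00110 (exact permutation p = 0.7).

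Against all other autosomal bins, flanks included, the excess was 0.0649 ± 0.00388 in cortex, 0.0633 ± 0.00411 in bulb and 0.0246 ± 0.000907 in cerebellum, positive in 7 of 7 libraries (mean 0.0529, exact sign-flip permutation p = 0.0156, adjusted p = 0.0195). The cerebellum value was 0.0402 below that of cortex, with no overlap of libraries (exact permutation p = 0.1, adjusted p = 0.3). The other autosomal bins averaged 0.673 in cortex, 0.704 in bulb and 0.732 in cerebellum, a wider step between cortex and cerebellum than that of the Olfr bins.

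**Figure D1:**
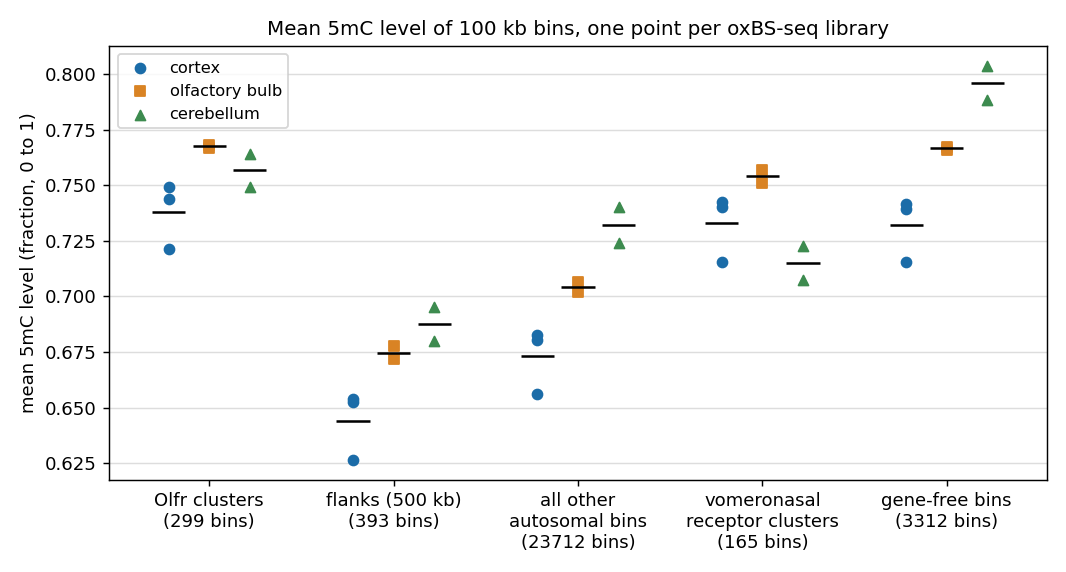
Mean 5mC level (vertical axis, fraction) of 5 classes of 100 kb bins, with 1 point per oxBS-seq library, coloured by tissue, and the tissue mean as a bar. Olfr clusters sit between 0.721 and 0.768 in every library, above their flanks. Vomeronasal receptor clusters lie below Olfr clusters in every library, by most in the cerebellum, where gene-free bins lie above Olfr clusters.

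Vomeronasal receptor genes (Vmn) are the other large clustered family of chemoreceptors in the mouse, used in the vomeronasal organ. The 165 bins with 2 or more Vmn genes averaged 0.733 in cortex, 0.754 in bulb and 0.715 in cerebellum. Olfr bins exceeded them in 7 of 7 libraries, by 0.0180 on average (exact sign-flip permutation p = 0.0156, adjusted p = 0.0195). The gap was 0.00523 ± 0.00156 in cortex, 0.0135 ± 0.00300 in bulb and 0.0416 ± 0.000334 in cerebellum. When each Olfr cluster was given the same weight the mean gap was 0.000462, and the call was lost (exact sign-flip permutation, adjusted p = 0.906). The Vmn side was still a plain mean over bins, so this gap sets unlike averages against each other. The 3312 bins with no annotated gene averaged 0.732, 0.766 and 0.796, and Olfr bins differed from them by 0.00591 in cortex, 0.000933 in bulb and -0.0393 in cerebellum (exact sign-flip permutation over the 7 libraries, p = 0.5).

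Levels stepped up at the edge of a cluster, from bins without an Olfr gene outside to member bins inside. Bins with 1 Olfr gene were left out of this profile. The 65 such autosomal bins averaged 0.683 in cortex, 0.710 in bulb and 0.713 in cerebellum, between the first bins outside and inside. How sharp the step is was therefore not settled. Outside, the first bin beyond the edge averaged 0.635 ± 0.0162 in cortex, 0.668 ± 0.00532 in bulb and 0.684 ± 0.0105 in cerebellum. Inside, the first bin averaged 0.713 ± 0.0157, 0.740 ± 0.00288 and 0.744 ± 0.00929. Deeper in, levels went on upwards, to 0.755, 0.789 and 0.772 in the 94 bins that were the fifth or deeper from the edge. Beyond the edge there was no such gradient, and the tenth bin outside averaged 0.638, 0.669 and 0.686. Only the longer clusters contribute to the deepest bins, so depth and cluster size were not separated. The density of CpG sites moved with the same positions, from 9.34 per kb in the first bin outside to 7.15 in the first inside and 4.78 in the deepest, and its part in the 5mC gradient was not tested.

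**Figure D2:**
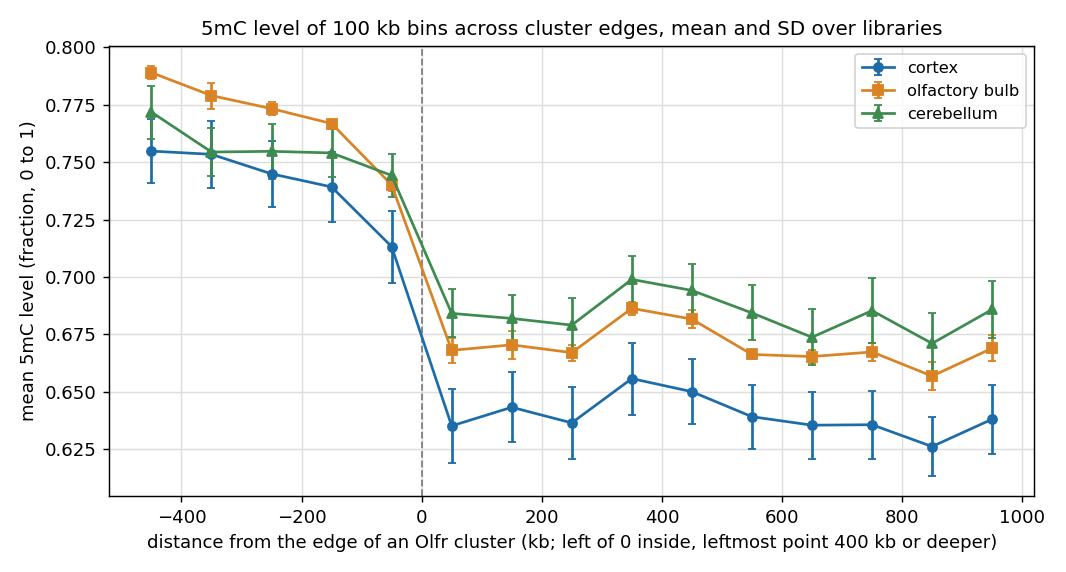
Mean 5mC level (vertical axis, fraction) of 100 kb bins against distance from the edge of an Olfr cluster in kb, left of 0 inside and right of 0 outside, with SD over libraries for each tissue. The first bin outside averages 0.635 in cortex and the first inside 0.713, and inside the cluster the bulb line ends highest, at 0.789. Bins with 1 Olfr gene are left out.

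Other genes within a cluster went with lower 5mC. The 209 members whose only protein-coding genes were Olfr genes averaged 0.751 in cortex, 0.780 in bulb and 0.763 in cerebellum. The 90 members that also overlap another protein-coding gene averaged 0.708, 0.738 and 0.741. The difference was -0.0436 ± 0.00249, -0.0428 ± 0.00638 and -0.0221 ± 0.00136, negative in 7 of 7 libraries (exact sign-flip permutation p = 0.0156, a comparison added after the data were seen and left unadjusted). The bins with another gene also had 7.21 CpG sites per kb against 5.19, and 38.8% against 49.3% repeat-masked bases, and these were not separated from the presence of the gene.

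The class I cluster, chr7:102400001-105400000, spans 27 member bins and 155 Olfr genes from Olfr543 to Olfr692. Its libraries read 0.765, 0.759 and 0.735 in cortex, 0.779 and 0.781 in bulb and 0.770 and 0.755 in cerebellum. The 272 class II bins averaged 0.737, 0.766 and 0.756. Class I lay above class II in 7 of 7 libraries, by 0.0168 ± 0.00106 in cortex, 0.0141 ± 7.25e-05 in bulb and 0.00675 ± 3.93e-05 in cerebellum (exact sign-flip permutation p = 0.0156, adjusted p = 0.0195). With medians over bins in place of means the difference was 0.00231 and was not called (exact sign-flip permutation, adjusted p = 0.332). The class I genes form 1 cluster, so the test is over libraries and the cluster itself has no replicate.

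The 299 bins formed 43 clusters, joined across gaps of up to 500 kb. Of these, 11 had 10 or more bins and together held 202 bins, and 9 were single bins. In each tissue, 39 of 43 clusters lay above their own flanks in the mean. The longest, chr2:85300001-90300000 from Olfr987 to Olfr1273-ps, holds 285 Olfr genes in 50 bins over 5000 kb. It read 0.772, 0.762 and 0.744 in cortex, 0.796 and 0.799 in bulb and 0.798 and 0.782 in cerebellum. Both bulb and both cerebellum libraries exceeded all of its cortex libraries, and its 8 flanking bins averaged 0.609, 0.668 and 0.672.

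The other large clusters kept to a narrow band in cortex and spread apart in cerebellum. In cortex their means ran from 0.709 in chr19:11800001-13900000 (Olfr1417 to Olfr1504, 18 bins) to 0.766 in chr7:107800001-108900000 (Olfr467 to Olfr519, 11 bins). In cerebellum they ran from 0.710 in the same chromosome 19 cluster to 0.793 in chr10:129000001-130200000 (Olfr763 to Olfr826, 12 bins). The chromosome 10 cluster read 0.764, 0.757 and 0.732 in cortex against 0.800 and 0.787 in cerebellum, so that the groups did not overlap. The chr9:37700001-40200000 cluster (Olfr160 to Olfr986, 25 bins) averaged 0.742 in cortex, 0.780 in bulb and 0.776 in cerebellum, and chr2:111200001-112200000 (Olfr1275 to Olfr1319-ps1, 10 bins) averaged 0.757, 0.789 and 0.784.

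In the others of the 11, cerebellum libraries overlapped those of cortex or lay under them. They overlapped with a higher cerebellum mean in the class I cluster (0.763 against 0.753) and in chr7:107800001-108900000 (0.7705 against 0.7664). The chr9:18800001-20400000 cluster (Olfr828 to Olfr18, 14 bins) read 0.763, 0.762 and 0.735 in cortex, 0.767 in both bulb libraries and 0.726 and 0.716 in cerebellum. All its cerebellum libraries were below all of its cortex libraries, by 0.0322 on average. The same held in chr2:36300001-37300000 (Olfr335-ps to Olfr367-ps, 10 bins), at 0.752, 0.746 and 0.729 in cortex and 0.727 and 0.710 in cerebellum. Cerebellum and cortex libraries overlapped in chr17:37000001-38400000 (Olfr90 to Olfr136, 14 bins, means 0.727 and 0.718) and in chr11:73300001-74400000 (Olfr20 to Olfr412, 11 bins, means 0.724 and 0.722). The chromosome 19 cluster was the only one of the 11 that lay under its flanks in a tissue, by 0.0316 in cerebellum, where the flanks averaged 0.742. Over all 43 clusters the bulb mean was above the cortex mean in 42, and the cerebellum mean was above it in 36. Of all single bins, 88.4% were above cortex in bulb and 88.0% in cerebellum. A cluster mean averages its bins, so the counts of clusters and the shares of bins are not like for like.

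**Figure D3:**
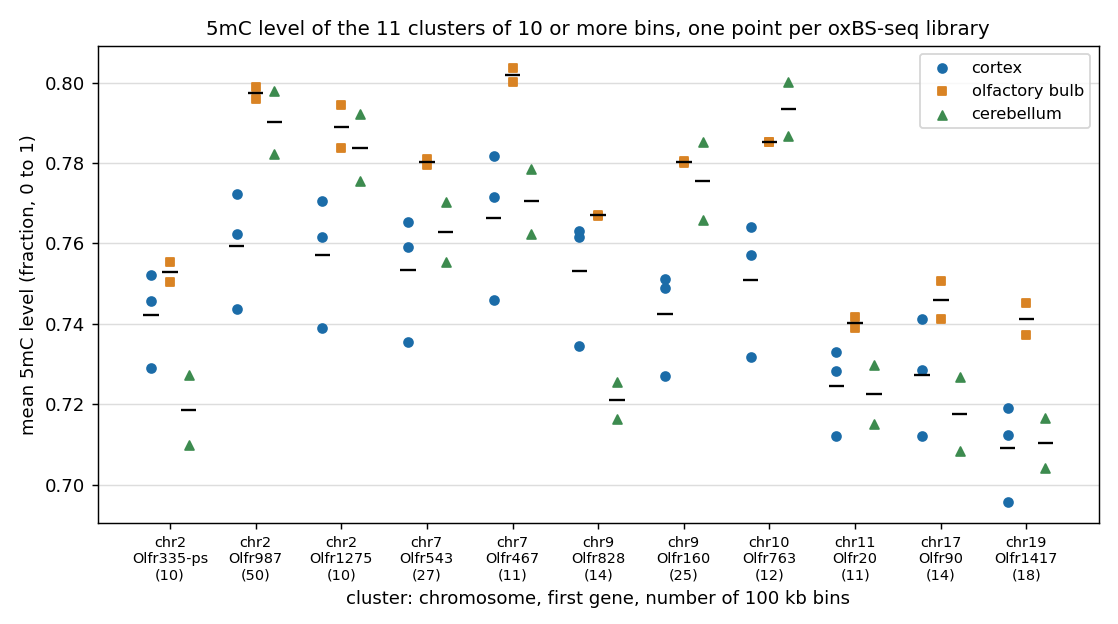
Mean 5mC level (vertical axis, fraction) of the 11 Olfr clusters of 10 or more bins (horizontal axis, by chromosome, first gene and number of bins), with 1 point per oxBS-seq library and the tissue mean as a bar. Cerebellum points lie above cortex in the chromosome 10 cluster (mean 0.793 against 0.751) and below it in the chromosome 9 cluster that starts with Olfr828 (0.721 against 0.753).

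By chromosome, members lay on 15 autosomes. They exceeded the other bins of the same chromosome in 7 of 7 libraries on 11 chromosomes and in 6 of 7 on chromosomes 14 and 19. The excess was widest on chromosome 2 (70 bins) in cortex and bulb, at 0.0956 and 0.0996, and on chromosome 7 (58 bins) in cerebellum, at 0.0574 against 0.0566 on chromosome 2. On chromosomes 8 (2 bins) and 13 (4 bins) members were lower than the rest of the chromosome in all 7 libraries, at 0.651 and 0.636 in cortex against 0.673 and 0.681. On chromosome 19 the excess was 0.0511 in cortex and 3.07e-06 in cerebellum.

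For single bins, a limma fit over the 25664 bins with a level between 0 and 1 in every library gave the tissue differences as log2 of level over 1 minus level, with p-values adjusted over all bins. The spread was shared so strongly across bins that each member had nearly the same standard error, 0.12 for a pair with cortex and 0.13 between cerebellum and bulb. Each count of calls is set beside the percentage of all bins called the same way. The mean level of whole libraries moved as well. Over all bins the median difference was 0.22 between bulb and cortex, 0.43 between cerebellum and cortex and 0.19 between cerebellum and bulb on the log2 scale, so the counts are also given after each library was centred on its median.

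Between bulb and cortex, the median difference of Olfr bins was close to that of all bins. Of the 299 members, 113 rose in limma (37.6% of all bins called higher) and 0 fell (2.18% of all bins called lower), and none fell at an unadjusted p under 0.05 or with levels on the fraction scale. The median difference in level was 0.0281 over members and 0.0307 over all bins, and 290 of 299 members were above 0. After centring, 13 members were called higher (8.81% of all bins) and 4 lower (9.90%). The count of 113 rested on few libraries, and was 27 without bulb replicate 1 and 33 without bulb replicate 2.

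By difference in level, the 3 largest bulb rises lay in 2 clusters on chromosomes 19 and 11. The bin chr19:12100001-12200000, with Olfr1427, Olfr1428 and Olfr76, read 0.726, 0.692 and 0.671 in cortex, 0.778 and 0.799 in bulb and 0.782 and 0.776 in cerebellum. It rose by 0.70 on the log2 scale in the bulb (SE 0.12, limma adjusted p = 2.485e-07) and by 0.62 in the cerebellum (limma adjusted p = 7.719e-07), with no overlap with cortex. In chr11:49200001-49300000, with Olfr1393 and Olfr1392, cortex read 0.553, 0.526 and 0.514, bulb 0.627 and 0.612 and cerebellum 0.642 and 0.614. Bulb and cerebellum again stood clear of cortex, with rises of 0.52 and 0.57 on the log2 scale (limma adjusted p = 0.0001439 and 3.752e-06). In chr19:12400001-12500000, which holds Olfr1441 and the end of Olfr1440, cortex read 0.632, 0.620 and 0.619, against 0.700 and 0.718 in bulb and 0.723 and 0.700 in cerebellum.

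Between cerebellum and cortex, the median difference of Olfr bins was smaller than that of all bins. Of 299 members, 98 rose (71.9% of all bins called higher) and 21 fell (4.44% called lower). The median difference was 0.0187 over members, 0.0585 over all bins, 0.0640 over gene-free bins and -0.0276 over Vmn bins. After centring, 8 members were called higher (25.7% of all bins) and 184 lower (24.3%). The 21 falls became 3 without cortex replicate 1, 7 without cortex replicate 2, 2 without cerebellum replicate 2 and 31 without cortex replicate 3. The 98 rises became 49 without cerebellum replicate 1.

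The falls gathered in the clusters on chromosomes 9 and 19. In chr9:19100001-19200000, the bin of Olfr836 and Olfr837, the latter with its window printed above, cortex read 0.734, 0.727 and 0.733, bulb 0.748 and 0.740 and cerebellum 0.679 and 0.662. Both cerebellum libraries lay under all the others, and the fall from cortex was -0.42 on the log2 scale (SE 0.12, limma adjusted p = 0.0007085). The bin chr9:19300001-19400000, with Olfr844 to Olfr847, read 0.737, 0.742 and 0.694 in cortex and 0.683 and 0.671 in cerebellum (log2 difference -0.33, limma adjusted p = 0.008331). Within the chromosome 9 cluster that starts with Olfr828, 9 of 14 bins fell in limma (4.44% of all bins). In chr19:13100001-13200000, with Olfr1458, Olfr1459, Olfr1461 and Olfr1462, cortex read 0.766, 0.772 and 0.730 against 0.713 and 0.701 in cerebellum (log2 difference -0.36, limma adjusted p = 0.003279). That chromosome 19 cluster was split, with 8 bins that fell and 5 that rose among 18 (4.44% and 71.9% of all bins). Over all members the falls numbered 2 without cerebellum replicate 2 and 3 without cortex replicate 1.

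By difference in level, the largest cerebellar rises lay at or near the ends of their clusters. The first bin of the chromosome 17 cluster, chr17:37000001-37100000, with Olfr90 and Olfr91, read 0.520, 0.480 and 0.466 in cortex, 0.505 and 0.466 in bulb and 0.612 and 0.602 in cerebellum. Cortex and bulb overlapped and cerebellum stood 0.118 above cortex (log2 difference 0.69, SE 0.12, limma adjusted p = 3.048e-08). The bin chr6:43200001-43300000, with Olfr435, Olfr434 and Olfr47, read 0.662, 0.679 and 0.637 in cortex, 0.730 and 0.708 in bulb and 0.779 and 0.748 in cerebellum. Here the 3 tissues were ordered with no overlap (cerebellum minus cortex 0.74 on the log2 scale, limma adjusted p = 4.11e-09). In its cluster, chr6:42400001-43300000, 7 of 7 bins rose in cerebellum (71.9% of all bins). The longest cluster, on chromosome 2, had 24 of 50 bins that rose in cerebellum against cortex, where 71.9% of all bins rose, and 35 of 50 that rose in bulb, where 37.6% did.

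Between cerebellum and bulb, 9 members rose (35.3% of all bins called higher) and 56 fell (7.69% called lower), with a median difference of -0.0112 over members and 0.0248 over all bins. After centring, 3 members were called higher (22.1% of all bins) and 172 lower (21.3%). The 56 falls were between 7, without cerebellum replicate 2, and 72, without cortex replicate 3. Besides the Olfr836 bin, the largest falls in level were in the next bin of its cluster and in the chromosome 19 cluster. In chr9:19200001-19300000, with Olfr843, bulb read 0.776 and 0.772 and cerebellum 0.711 and 0.702. In chr19:13400001-13500000, with 8 Olfr genes including Olfr1469, Olfr1471 and Olfr1472, bulb read 0.736 and 0.740 and cerebellum 0.677 and 0.660. Besides the Olfr90 bin, the largest rises in level were chr1:174400001-174500000, with Olfr414 and Olfr220, at 0.751 and 0.752 in bulb and 0.810 in both cerebellum libraries, and chr6:42700001-42800000, with Olfr453, Olfr38 and Olfr452, at 0.681 and 0.704 in bulb and 0.751 in both cerebellum libraries.

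Bins that differed in these ways also differed in sequence content. Olfr bins had 5.80 CpG sites per kb and 46.1% repeat-masked bases, against 9.41 and 33.8% in flanks, 5.84 and 53.6% in Vmn bins and 5.84 and 39.9% in gene-free bins. Across the 299 members, the repeat-masked percentage went with higher 5mC in cortex (Pearson r = 0.536, Spearman rho = 0.507) and in bulb (0.475 and 0.400), and less in cerebellum (0.194 and 0.0941). It went with a lower cerebellum minus cortex difference (r = -0.517, rho = -0.501) and hardly with the bulb minus cortex difference (r = -0.159, rho = -0.155). These correlations are across bins that share libraries and clusters, and are given as a description. The part of repeat content in the tissue differences was not tested.

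**Figure D4:**
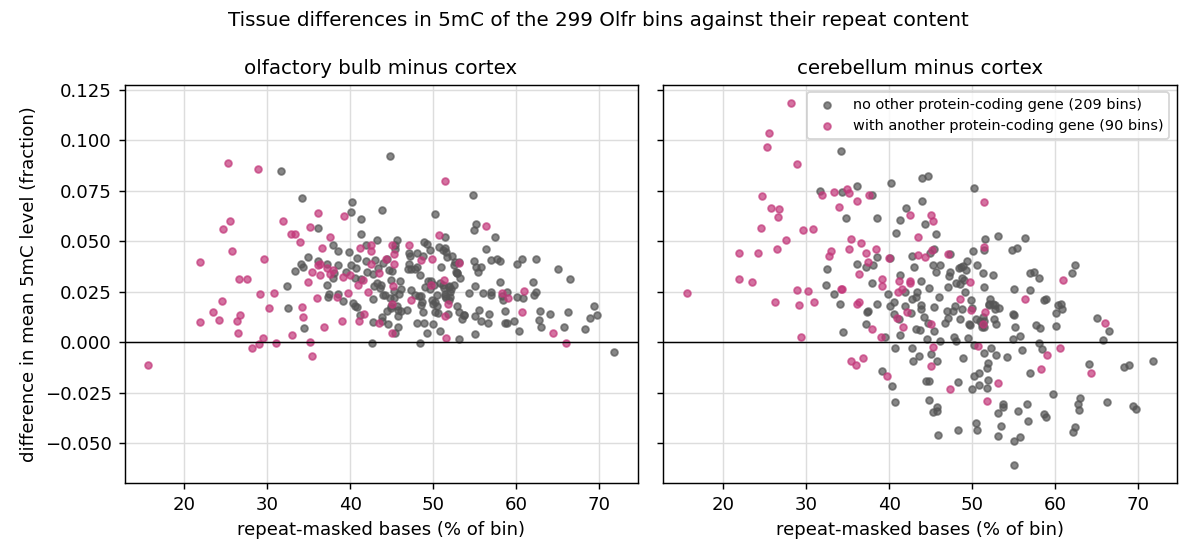
Difference in mean 5mC level (vertical axis, fraction) of each of the 299 Olfr bins against its repeat-masked bases (horizontal axis, percent of the bin), for bulb minus cortex (left) and cerebellum minus cortex (right), coloured by whether another protein-coding gene overlaps the bin. The right panel slopes downwards (r = -0.517) and the left panel is nearly level (r = -0.159).

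Receptors often used as models were looked up by the bin of their gene start, 10 genes in all. The bins of 8 were members, while Olfr16 (MOR23) and Olfr15 each sat in a bin with 1 Olfr gene. In limma, 6 of the 10 rose in bulb against cortex (37.6% of all bins) and 5 rose in cerebellum against cortex (71.9%). Between cerebellum and bulb 0 rose and 0 fell (35.3% and 7.69% of all bins), and 1 was lower at an unadjusted p under 0.05. No share of all bins is given for counts at an unadjusted p, here or elsewhere. Several of the 10 receptors share a bin, so their counts are not independent. Olfr160 (M72) and Olfr151 (M71), receptors whose axons end in neighbouring glomeruli, share chr9:37700001-37800000. That bin read 0.721, 0.704 and 0.683 in cortex, 0.769 and 0.763 in bulb and 0.795 and 0.762 in cerebellum. Bulb and cerebellum stood clear of cortex, with log2 differences of 0.47 and 0.58 (SE 0.12, limma adjusted p = 0.0007492 and 3.098e-06).

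Olfr17 (P2) and Olfr2 (I7, a receptor for octanal) share chr7:107000001-107100000, which read 0.745, 0.726 and 0.717 in cortex, 0.743 and 0.774 in bulb and 0.735 and 0.739 in cerebellum. Cortex overlapped both other tissues there, and the bulb libraries lay just above those of the cerebellum. The bin of Olfr1507 (MOR28), chr14:52400001-52500000, passed the test in no pair, at 0.766, 0.770 and 0.757 in cortex, 0.777 and 0.770 in bulb and 0.786 and 0.747 in cerebellum. Olfr73 (mOR-EG, a receptor for eugenol), in chr2:88000001-88100000, read 0.774, 0.770 and 0.731 in cortex and 0.809 and 0.804 in bulb (log2 difference 0.41, limma adjusted p = 0.003468). Olfr1440 has its start in chr19:12300001-12400000, at 0.751, 0.747 and 0.736 in cortex, 0.783 and 0.811 in bulb and 0.779 in both cerebellum libraries. The class I receptor Olfr78, in chr7:102700001-102800000, read 0.762, 0.753 and 0.721 in cortex, 0.785 and 0.783 in bulb and 0.780 and 0.749 in cerebellum, and rose in the bulb (log2 difference 0.31, limma adjusted p = 0.02755).

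A list of 22 genes for odour signalling and receptor choice was looked up in the same way, at the bin of each gene start. In bulb against cortex 7 rose and 0 fell in limma (37.6% and 2.18% of all bins), and 12 were higher and 0 lower at an unadjusted p under 0.05. In cerebellum against cortex 12 rose and 0 fell (71.9% and 4.44%), with the same counts unadjusted, and in cerebellum against bulb 3 rose and 2 fell (35.3% and 7.69%). Lhx2, a homeodomain factor needed for class II receptor expression, lay in a bin at 0.406, 0.419 and 0.414 in cortex, 0.508 and 0.512 in bulb and 0.502 and 0.452 in cerebellum. Ebf1, whose protein binds olfactory gene promoters, lay at 0.528, 0.495 and 0.487 in cortex, 0.582 and 0.576 in bulb and 0.621 and 0.561 in cerebellum. Cnga4, a subunit of the olfactory cyclic nucleotide channel, lies in the bin just past the class I cluster. That bin read 0.568, 0.547 and 0.553 in cortex, 0.600 and 0.577 in bulb and 0.708 and 0.667 in cerebellum (cerebellum minus cortex 0.81 on the log2 scale, limma adjusted p = 9.041e-11). The bins of Dnmt3a and Tet3, which write and oxidise 5mC, had means of 0.425 and 0.479 in cortex and passed the test in no pair. These bins are not Olfr bins and also hold other sequence.

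The 5hmC of Olfr clusters was low and differed between tissues in the order cortex, bulb, cerebellum. Over the 54 bins of 1 Mb it averaged 0.117, 0.128 and 0.113 in cortex (0.120 ± 0.00798, n = 3), 0.0900, 0.0965 and 0.0914 in bulb (0.0926 ± 0.00339, n = 3) and 0.0656, 0.0645 and 0.0672 in cerebellum (0.0658 ± 0.00139, n = 3). No libraries of different tissues overlapped. The bulb was 0.0270 below cortex, the cerebellum 0.0539 below cortex and 0.0269 below bulb, each at the smallest p that 3 against 3 libraries allow (two-sided exact permutation p = 0.1, adjusted p = 0.1).

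Olfr bins were poorer in 5hmC than their surroundings. The flanks, here 46 neighbouring 1 Mb bins with no Olfr gene, averaged 0.163 in cortex, 0.142 in bulb and 0.102 in cerebellum. Olfr bins were lower in 9 of 9 libraries, by 0.0433 ± 0.00180 in cortex, 0.0498 ± 0.000672 in bulb and 0.0361 ± 0.00218 in cerebellum (exact sign-flip permutation p = 0.00391, the smallest that 9 libraries allow, adjusted p = 0.00391). Here too the 9 libraries are taken as independent, though libraries of different tissues may share mice. As a difference in level, the deficit was largest in bulb and smallest in cerebellum, with no overlap between tissues (exact permutation p = 0.1 for each pair, adjusted p = 0.1). As a percentage of the flanks, the order was another. Olfr bins held 73.4% ± 0.692 of the flank level in cortex, 65.0% ± 0.677 in bulb and 64.6% ± 1.15 in cerebellum (n = 3 each), and bulb and cerebellum overlapped. This percentage was added after the data were seen and was not tested. Other autosomal bins averaged 0.170, 0.152 and 0.0994, and Olfr bins were below them in 9 of 9 libraries, by 0.0507, 0.0589 and 0.0337. Vmn clusters were lower still, at 0.0637, 0.0482 and 0.0361 over 34 bins. Olfr bins exceeded them in 9 of 9 libraries (mean difference 0.0434, exact sign-flip permutation p = 0.00391, left unadjusted).

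**Figure D5:**
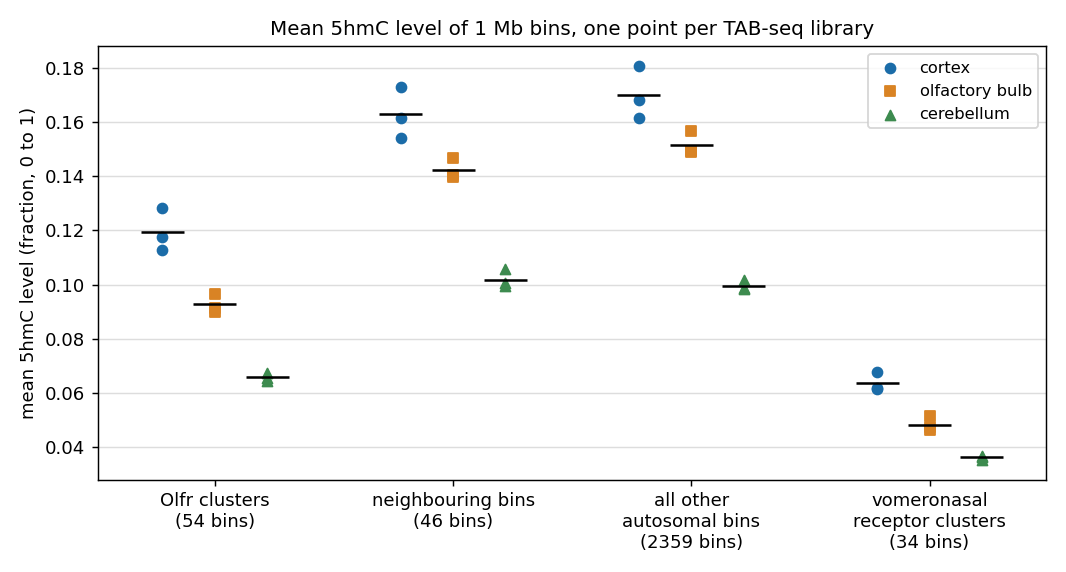
Mean 5hmC level (vertical axis, fraction) of classes of 1 Mb bins, with 1 point per TAB-seq library, coloured by tissue, and the tissue mean as a bar. Olfr clusters lie below flanks and other autosomal bins and above vomeronasal receptor clusters in every tissue, at means of 0.120 in cortex, 0.0926 in bulb and 0.0658 in cerebellum.

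The deficit went with the number of Olfr genes in the bin. The 25 bins with 20 or more genes averaged 0.0945 in cortex, 0.0642 in bulb and 0.0408 in cerebellum, and the 29 bins with 5 to 19 genes averaged 0.141, 0.117 and 0.0873. At the limit of the rule, the 1 member with exactly 5 genes read 0.193, 0.160 and 0.115, and the 5 bins with 4 genes, which are not members, averaged 0.137, 0.105 and 0.0883. Across the 54 members 5hmC also went with repeat-masked bases (Pearson r = -0.888 in cortex, -0.889 in bulb and -0.793 in cerebellum) and with CpG density (0.644, 0.684 and 0.707). It went inversely with the 5mC of the same bins (-0.713, -0.741 and -0.572). The bins share libraries, and gene number, repeats and CpG density were not separated.

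In limma over 2581 bins of 1 Mb, 50 of 54 members fell in bulb against cortex (67.7% of all bins called lower) and 0 rose (3.25% called higher). In cerebellum against cortex 54 of 54 fell (97.6%) and 0 rose (0.426%), and in cerebellum against bulb 51 fell (91.8%) and 1 rose (1.20%). No member rose against cortex at an unadjusted p under 0.05 or on the fraction scale. Every bin had the same SE of 0.07 on the log2 scale, since the spread was pooled over all bins, which makes single p-values very small. The median log2 difference over members was -0.41 between bulb and cortex, -1.03 between cerebellum and cortex and -0.61 between cerebellum and bulb, against -0.24, -0.97 and -0.72 over all bins.

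After each library was centred on its median, the calls fell in both directions. For bulb against cortex 40 members were called lower (33.0% of all bins) and 4 higher (36.2%). For cerebellum against cortex 24 were lower (40.1%) and 23 higher (50.3%), and for cerebellum against bulb 10 were lower (39.1%) and 34 higher (50.9%).

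By difference in level, the 3 largest falls in the bulb were in bins with 33 to 61 Olfr genes. On the log2 scale chr7:106000001-107000000, with 22 Olfr genes, had the largest change of the 54 members and fell by 1.36. Its level was low, at 0.0583 in cortex and 0.0236 in bulb. The paper states that 5hmC beyond gene bodies is very low and in the range of TAB-seq error. No error rate was applied here, so the part of background in such low levels was not tested. The bin chr2:87000001-88000000, with 61 Olfr genes, read 0.0752, 0.0869 and 0.0786 in cortex, 0.0296, 0.0378 and 0.0405 in bulb and 0.0263, 0.0314 and 0.0308 in cerebellum. It fell by 1.24 on the log2 scale in the bulb (limma adjusted p = 1.264e-60). The bin chr19:12000001-13000000, with 33 Olfr genes including Olfr1440, read 0.119, 0.130 and 0.112 in cortex, 0.0684, 0.0764 and 0.0714 in bulb and 0.0443, 0.0453 and 0.0477 in cerebellum. In chr2:85000001-86000000, with 45 Olfr genes, cortex read 0.135, 0.147 and 0.134 and bulb 0.0942, 0.0999 and 0.0932.

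The largest falls in level in the cerebellum, from cortex or from bulb, were in other bins, where the bulb fell from cortex by less. The bin chr16:59000001-60000000, with 25 Olfr genes, read 0.153, 0.162 and 0.147 in cortex, 0.139, 0.139 and 0.133 in bulb and 0.0579, 0.0572 and 0.0593 in cerebellum. Bulb lay just under cortex there, and cerebellum far under both. Its neighbour chr16:58000001-59000000, with 8 genes from Olfr172 to Olfr183, had a bulb level of 0.112, 0.121 and 0.113 between cortex (0.150, 0.168 and 0.155) and cerebellum (0.0617, 0.0618 and 0.0622). In chr4:52000001-53000000, with the 6 genes Olfr270 to Olfr275, cortex read 0.151, 0.163 and 0.139, bulb 0.130, 0.137 and 0.132 and cerebellum 0.0565, 0.0539 and 0.0579. The bin of Olfr160 and Olfr151, chr9:37000001-38000000, read 0.185, 0.195 and 0.179 in cortex, 0.166, 0.170 and 0.160 in bulb and 0.0999, 0.0914 and 0.0969 in cerebellum.

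The bin of Olfr17 and Olfr2, chr7:107000001-108000000 with 17 Olfr genes, went the other way between cerebellum and bulb. It read 0.130, 0.144 and 0.128 in cortex, 0.0927, 0.0985 and 0.0932 in bulb and 0.112, 0.105 and 0.110 in cerebellum. All cerebellum libraries lay above all bulb libraries (log2 difference 0.23, SE 0.07, limma adjusted p = 0.002318), and below all cortex libraries.

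Members differed widely in 5hmC, from 0.0273 to 0.194 in cortex, 0.0182 to 0.197 in bulb and 0.0143 to 0.160 in cerebellum. The part of TAB-seq background in the lowest levels was not tested. The lowest were chr17:38000001-39000000, with 11 Olfr genes from Olfr129 onwards, at 0.0273, 0.0284 and 0.0261 in cortex and 0.0114, 0.0159 and 0.0156 in cerebellum, and chr9:19000001-20000000. The latter, with 30 Olfr genes, contains the Olfr836 bin where cerebellar 5mC fell, and read 0.0278, 0.0323 and 0.0284 in cortex, 0.0209, 0.0254 and 0.0227 in bulb and 0.0173, 0.0200 and 0.0221 in cerebellum. The highest was chr1:92000001-93000000, with 8 genes from Olfr1416 to Olfr12, at 0.191, 0.205 and 0.184 in cortex, 0.196, 0.205 and 0.191 in bulb and 0.146, 0.142 and 0.150 in cerebellum. Cortex and bulb overlapped in that bin. By chromosome, members were below the rest of the chromosome in 9 of 9 libraries on 10 of 14 chromosomes, and on chromosome 1 (3 bins) they were above it in 5 of 9. Chromosome 17 (2 bins) was lowest, at 0.0524, 0.0353 and 0.0245, against 0.164, 0.147 and 0.101 for the rest of it.

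Adding 5mC and 5hmC over the same 54 bins of 1 Mb, with 5mC averaged from their 100 kb bins, gave a total modification of 0.816 ± 0.0168 in cortex, 0.819 ± 0.00342 in bulb and 0.794 ± 0.0112 in cerebellum, with errors combined from the SD of the separate libraries. The total of the bulb minus that of cortex was 0.00295 ± 0.0171, that of the cerebellum minus cortex was -0.0224 ± 0.0202 and that of the cerebellum minus bulb was -0.0254 ± 0.0117. The sum rests on different libraries for each part and was not tested. 5hmC made up 14.7% of it in cortex, 11.3% in bulb and 8.28% in cerebellum. The same share was 20.04%, 17.3% and 12.8% in the flanks, 20.2%, 17.7% and 12.0% in other autosomal bins and 8.18%, 6.14% and 4.87% in Vmn clusters, so Olfr clusters lay between them in each tissue.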

How the data were processed

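The files hold, per the labels, bin means of oxBS-seq (5mC, 100 kb bins) and TAB-seq (5hmC, 1 Mb bins) libraries. The authors mapped reads with Bismark to mm10, called sites by a binomial test and deposited each level as a fraction. How sites or reads were combined per bin is not given in the sources used here, and the files hold no coverage. The study gives a mean coverage per tissue, but the depth of a library or bin is unknown here, so no counting interval was given. Precision rests on the number of libraries alone. Groups came from the sample titles. Replicates of a tissue were separate mice.

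Genes were taken from GENCODE vM21 and sequences from RefSeq GRCm38.p6. The windows of some genes are not reported here. Members and gene lists were chosen with earlier results of these data known. Bins at exactly 0 or 1 in a library were left out (663 of 100 kb, 60 of 1 Mb, 0 of them members). Class means per library were compared by two-sided exact permutation tests, over libraries between tissues and by sign flips within libraries, with Benjamini-Hochberg adjustment within each family. Single bins were tested with limma 3.58.1 (R 4.3.3) on log2(level/(1 - level)), all bins of an assay in 1 fit on the 3 tissues without a block, called at an adjusted p under 0.05. The code was tested on simulated data. Figures used Python 3.11.15, numpy 2.4.6, pandas 2.3.3 and matplotlib 3.10.9.

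Bins are named where they had, for each pair of tissues, 1 of the 3 largest rises or falls among called members whose libraries do not overlap, where they hold 1 of the 10 listed receptors, where they ranked among the 3 highest or lowest in mean level, or in clusters of 10 or more bins. The chromosome 6 cluster and the bins of single signalling genes were named after their values were seen. Alternatives for the class means were the bin median, equal weight per Olfr cluster (other classes unchanged), CpG weighting, protein-coding Olfr genes only and other flanks. Further alternatives were a stricter gene number, all bins kept with levels limited to 0.001 and 0.999, a replicate block and leaving out each library. The limma fits were also run on a fraction scale, with centring, and with a trend and robust fit.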

Additional observations from a re-analysis of the deposited data

Results flagged for a closer look

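The comparison of Olfr bins with gene-free bins changed sign between tissues. In 5mC, Olfr bins lay 0.005907 above the 3312 gene-free bins in cortex, where all 3 libraries were above 0, and 0.000933 above them in olfactory bulb, where both libraries were above 0. In cerebellum they lay at -0.03929 relative to them, and both libraries were below 0. The test of the difference itself gave -0.0452 for cerebellum minus cortex (exact permutation p = 0.1, the smallest that 2 against 3 libraries allow, adjusted p = 0.15) and -0.0402 for cerebellum minus bulb (exact permutation p = 0.333, the smallest that 2 against 2 allow, adjusted p = 0.333). Olfr bins had 46.1% repeat-masked bases and gene-free bins 39.9%, at 5.80 and 5.84 CpG sites per kb, and their part in the difference was not tested.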

How the results depend on the processing

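The excess of Olfr bins over flanks and over other autosomal bins in 5mC, and their deficit in 5hmC, kept their direction and their call under every alternative run. Values that changed were as follows; the cause was not tested except where stated. With medians over bins, class I minus class II was 0.002308 (exact sign-flip permutation, adjusted p = 0.332). With each cluster at the same weight, Olfr minus Vmn was 0.0004618 (adjusted p = 0.906) and Olfr minus gene-free bins was called, at -0.02595. With all bins kept, Olfr minus gene-free bins was 0.1057, since bins at 0 then entered the gene-free class.

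Leaving out each library in turn moved the bulb minus cortex difference of the excess over flanks between -0.004934 and 0.002741, and of the excess over other autosomal bins between -0.004468 and 0.001345, so their sign was not stable. The counts of called Olfr bins ran from 27 to 106 higher for bulb minus cortex. For cerebellum minus cortex they ran from 49 to 100 higher and from 2 to 31 lower. For cerebellum minus bulb they ran from 4 to 18 higher and from 7 to 72 lower, and in 5hmC from 1 to 2 higher. The share of all bins called is not given for the counts without a library, here or above. Nor is it given for those on the fraction scale, with all bins kept or with a block. Such counts show how calls of Olfr bins move with the setting, not how Olfr bins compare with other bins.

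On the fraction scale, 74 bins were higher in bulb than cortex and 32 lower in cerebellum than bulb. With all bins kept, these counts were 47 and 30. Centring each library on its median gave 13 higher and 4 lower for bulb minus cortex, 8 and 184 for cerebellum minus cortex and 3 and 172 for cerebellum minus bulb, and in 5hmC 4 higher, 23 higher and 24 lower, and 34 higher and 10 lower in the same order of pairs. Centring by construction removes the median shift of a library. Under the stricter gene number the 5hmC share was 10.44% in bulb and 7.66% in cerebellum.

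With a replicate block on the label numbers, 73 bins were higher in bulb than cortex, 32 lower in cerebellum than cortex and 18 higher in cerebellum than bulb. Deviations of same-numbered libraries had correlations from -0.0932 to 0.029 in 5mC and from -0.191 to 0.429 in 5hmC, and not every pair of same-numbered libraries exceeded 0.1, so they were not treated as paired. Between bulb and cerebellum the same-numbered TAB-seq libraries had 0.391, 0.429 and 0.0566, against -0.396 and -0.408 for the crossed pairs of replicates 1 and 2, and not every library correlated best with its own number. Deviations from a tissue mean cancel out within the tissue, so same-numbered and crossed values are tied to each other. Whether some of these libraries share a mouse or a batch was not settled. The library names carry other numbers than the labels, and a block on those, chosen after the data were seen, gave 164 higher in bulb than cortex, 106 higher and 29 lower in cerebellum than cortex and 10 higher and 67 lower in cerebellum than bulb. With 2 or 3 libraries per group and no depth, differences below the spread between libraries were not detectable.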
